A study of Homo sapiens with 16 samples.

Results

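The genes described here are 102 of the 18239 genes on the array whose transcripts were strongly lower in SK-N-SH cells at every time after risperidone, outside a few large matrix, adhesion and guidance families. They were chosen by a rule on the measured values. A gene with several single-symbol probe sets was represented by the brightest of them, by the mean of the 16 arrays. It was kept when its means at 6, 24 and 48 h all lay at least 2.5 below the untreated mean on the log2 scale, a 5.66-fold difference. Of the 128 genes that met this limit, 26 were set aside by name: symbols beginning with one of 11 prefixes (collagens, integrins, laminins, matrix metalloproteinases, serpins, semaphorins, cadherins and others) and 15 single symbols such as FN1, CCN1, CCN2, AXL and PRRX1. The differences from untreated cells therefore stand here as descriptions with no test. Tests are given only for differences between the exposure times, whose order the rule does not set, and for genes outside the set.

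The line SK-N-SH was derived from a human neuroblastoma, and risperidone is an antipsychotic whose main targets are receptors for serotonin and dopamine. The 16 samples form 4 groups of 4: untreated cells, and cells given 10 µM risperidone in DMSO for 6, 24 or 48 h, all after 48 h of growth. The treatment protocol states that controls received the vehicle, DMSO, at no more than 1% of the volume, while the labels call them untreated, and the time at which they were harvested is not stated in the sources used here. Total RNA was hybridised to Human Genome U219 arrays, and the deposited values are log2 expression values from the robust multi-array average (RMA). Each sample is labelled a biological replicate, but separate cultures are not described, so a p-value here reflects the spread among these samples, which may be technical. With 1 control group, exposure and time since plating cannot be told apart.

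Cells of neuroblastoma lines can take an adrenergic, neuron-like state or a mesenchymal, substrate-adherent state, and SK-N-SH is known to hold cells of both kinds. Mesenchymal cells are flat and spread, carry surface proteins such as CD44 and CD73, and use YAP1 and WWTR1 (TAZ), the co-activators that bind TEAD factors when the Hippo kinases are inactive. Their membranes carry caveolae, small pits built from caveolins, and their cytoplasm holds actin stress fibres. In RNA from a whole culture, fewer cells of a type and less RNA per cell cannot be told apart.

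The 4 untreated arrays stood apart from the 12 exposed arrays over the tested genes, those left by a filter on dim genes: the first principal component held 74.8% of the variance and separated them. Medians of single arrays lay between 4.50 and 4.62. By the fit over the 13680 genes that passed a filter on dim genes, 16.7% of genes were lower and 36.6% higher at 6 h than in untreated cells, 16.9% and 35.3% at 24 h, and 21.0% and 36.0% at 48 h (limma, Benjamini-Hochberg adjusted p under 0.05). That split depended on the scaling: of the genes called at 6 h, 68.7% were higher with the deposited values and 49.4% after cyclic loess. Of 8 adrenergic neuroblastoma markers on the array, HAND2 and GATA2 had untreated means of 12.47 and 12.60 and TH one of 4.90. The mean over the 8 was 10.4 to 10.5 per untreated array and 10.8 to 10.9 at 6 h. All 8 were higher at 6 h by the fit, and 7 at 48 h. The 6 h differences were unequal: 1.16 for DBH, 0.76 for DDC, and 0.25 to 0.36 for PHOX2A, GATA3, ISL1 and TH. Those of HAND2 and GATA2, 0.13 and 0.12, lay near the median of 0.09 over all tested genes, which was 0.01 after cyclic loess.

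All 102 genes passed the dim filter, which uses the mean of all 16 arrays. LEF1, ATP8B1, NDN, DIRAS3, TSPAN8, WT1 and SASH1 passed it through the untreated arrays alone: their means over the 12 exposed arrays, 3.12 to 3.63, lay below the filter's lowest kept mean of 3.65, and a comparison between exposure times rests on dim values in them. Their untreated means ran from 6.00 to 12.95, with a median of 8.99, and the medians of their group means were 5.22 at 6 h, 5.58 at 24 h and 5.51 at 48 h. In every one of the 102 genes, the lowest untreated array lay above the highest exposed array, by 1.61 to 3.92. The difference from untreated ran from -4.61 to -2.54 at 6 h (median -3.28), from -4.34 to -2.53 at 24 h (median -2.94) and from -4.47 to -2.56 at 48 h (median -3.10). The median over all tested genes was 0.09, 0.09 and 0.08. The rule fixes the side on which the genes lie, so these values carry no support of their own. At 6 h, 72 genes were at least 8-fold lower, and 46 lay at least 3 lower at all 3 times.

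The lowest value in the whole table was 2.57, so a gene near that value in untreated cells could not meet the rule. After 6 h, 24 of the 102 genes had a mean below 4, where little room for a further fall was left, and 11 had a mean above 7. Just inside the limit lay TAGLN, PCOLCE2, PLPP4, KITLG and NDN, whose smallest falls were -2.53, -2.53, -2.54, -2.54 and -2.54. Just outside lay GTSF1 (-2.49), PSMB9 (-2.49), MYO10 (-2.49), LMO4 (-2.49) and TPBG (-2.49). The boundary of the set is therefore a cut through a continuous range of values.

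**Figure D1:**
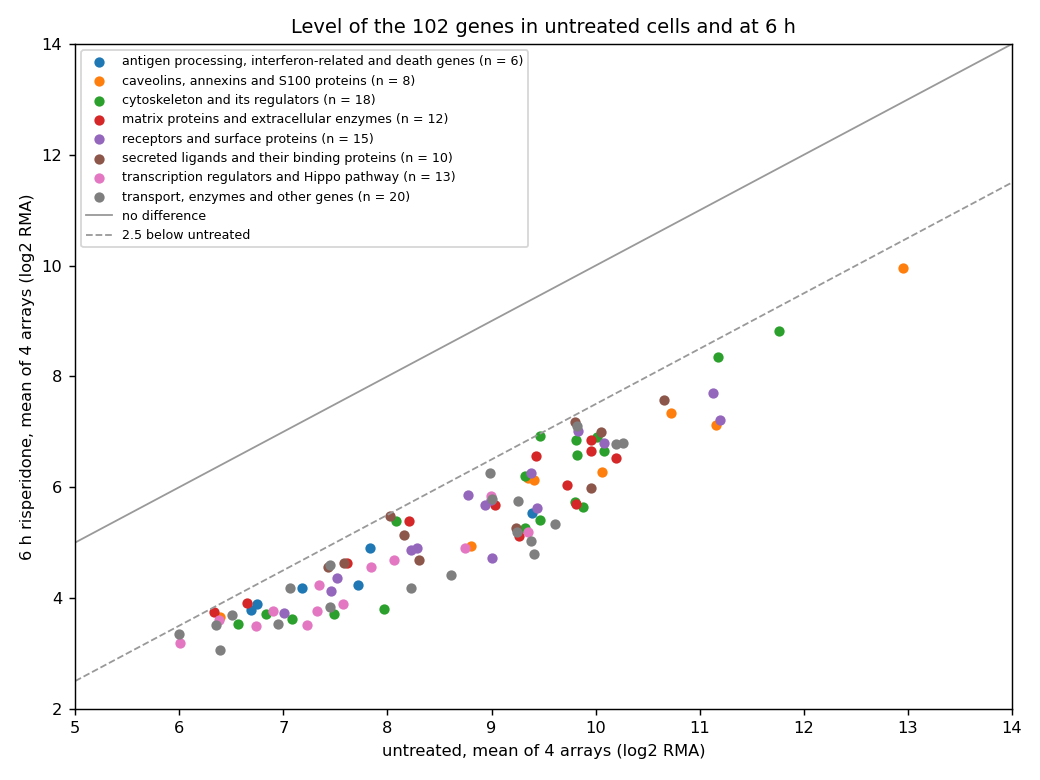
Mean log2 RMA value of each of the 102 genes at 6 h (vertical axis, 4 arrays) against its mean in untreated cells (horizontal axis, 4 arrays), coloured by role. The solid line marks no difference and the dashed line the limit of 2.5 that chose the genes, so all points lie under it, and the 6 h means run from 3.06 to 9.95.

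By role, 18 of the genes belong to the cytoskeleton and its regulators, 15 are receptors and surface proteins, 13 are transcription regulators or belong to the Hippo pathway, 12 are matrix proteins or extracellular enzymes, 10 are secreted ligands or their binding proteins, 8 are caveolins, annexins or S100 proteins, 6 belong to antigen processing, the interferon response or cell death, and 20 are transporters, enzymes and others. These roles were assigned after the values had been seen. The median difference at 6 h lay between -2.96 for the 6 antigen processing and related genes and -3.42 for the 20 transporters, enzymes and others. The medians of the roles thus differed by less than the range within any of them.

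TMEM200A, which encodes a transmembrane protein, had the largest mean difference of the 102. TMEM200A read 9.18, 9.38, 9.68 and 9.40 in the untreated arrays, 5.12, 4.77, 4.46 and 4.85 at 6 h, 5.10, 5.26, 5.05 and 4.86 at 24 h and 4.93, 4.87, 4.87 and 5.08 at 48 h. Its means were 24.4-fold lower at 6 h, 20.3-fold at 24 h and 22.2-fold at 48 h. The other genes among the 15 with the largest mean difference were MLPH, SLC38A4, ADGRG6, RDH10, ARHGAP18, CAV1, CCDC85A, CRIM1, PHLDA1, THBS1, VEGFC, TGM2, CCDC80 and IGF2BP2. They span all roles except antigen processing and the transcription regulators: MLPH links pigment granules to myosin, SLC38A4 carries amino acids, ADGRG6 is an adhesion receptor, RDH10 oxidises retinol, and IGF2BP2 binds mRNA. In none of the 15 did an exposed array reach the range of the untreated ones.

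**Figure D2:**
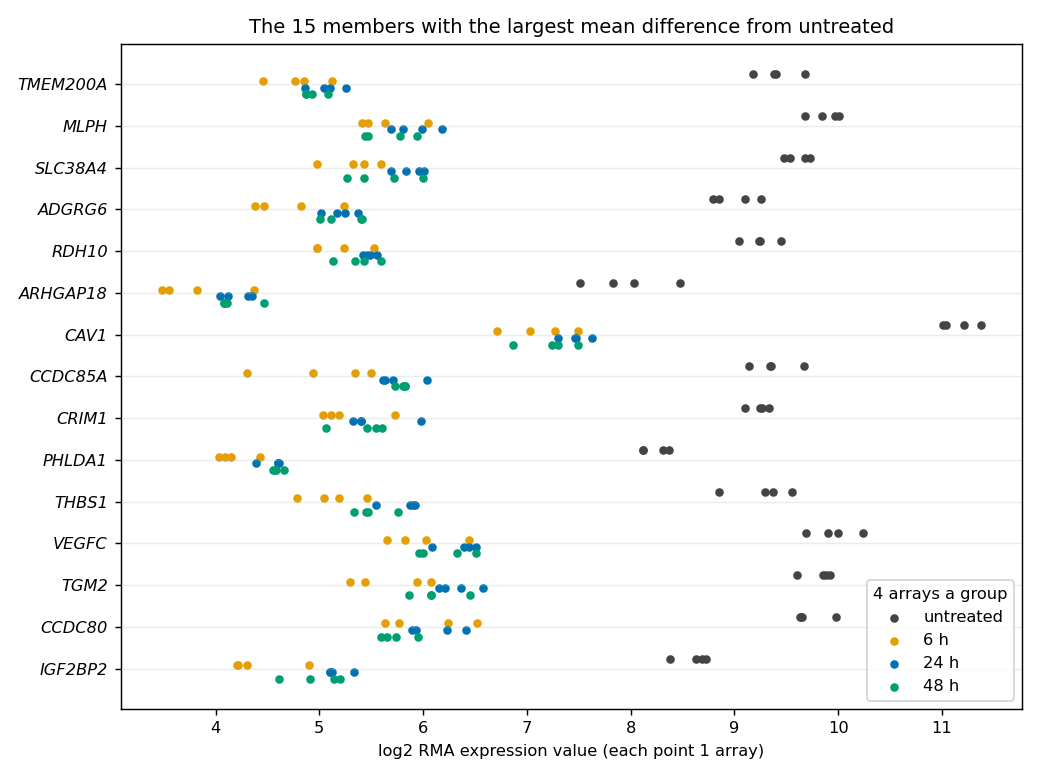
Log2 RMA value in each of the 16 arrays for the 15 genes with the largest mean difference from untreated, with points coloured by group (4 arrays each). In each gene the 4 untreated arrays lie to the right of all 12 exposed arrays, as for CAV1, where untreated arrays read 11.01 to 11.38 and exposed arrays 6.71 to 7.63.

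Among the secreted ligands, VEGFC, a growth factor for lymphatic endothelium, showed a large difference. VEGFC read 9.69, 9.90, 10.24 and 10.00 in the untreated arrays, 6.44, 6.03, 5.65 and 5.83 at 6 h, 6.44, 6.51, 6.09 and 6.39 at 24 h and 6.00, 6.33, 5.96 and 6.51 at 48 h. That is 15.7-fold lower at 6 h and 13.5-fold at 48 h, with overlapping ranges at the 3 exposure times. FGF5, PDGFC, WNT5A, KITLG (the ligand of the receptor KIT) and the neuropeptide precursor NTS differed from untreated by -3.62 to -2.54 at 6 h. The binding proteins and antagonists CRIM1, FST and GREM1, which bind bone morphogenetic proteins or activins, and PAPPA, a protease that cuts insulin-like growth factor binding proteins, belonged to the same group.

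GREM1, a secreted antagonist of bone morphogenetic proteins, was lower at 48 h than at either earlier time. GREM1 read 9.33, 9.75, 10.30 and 9.83 in the untreated arrays, 7.72, 7.40, 6.79 and 6.82 at 6 h, 7.02, 7.01, 6.77 and 6.91 at 24 h and 5.83, 5.94, 5.62 and 6.10 at 48 h. Every 48 h array lay below every 24 h and 6 h array, whereas the 6 h and 24 h arrays overlapped. From 24 h to 48 h it fell by 1.06 ± 0.20 (SE; limma adjusted p = 0.000752), and from 6 h to 48 h by 1.31 ± 0.20 (limma adjusted p = 0.000091). Its difference from untreated was 6.15-fold at 6 h and 15.2-fold at 48 h. KITLG fell by 0.44 ± 0.09 from 24 h to 48 h (limma adjusted p = 0.00111) and by 0.60 ± 0.09 from 6 h to 48 h (limma adjusted p = 6.0e-05). Its 48 h arrays, 4.81, 4.82, 4.86 and 5.06, lay below all 6 h and 24 h arrays, which read 5.14 to 5.63. As a mean over its 4 probe sets KITLG differed by -0.10 from 24 h (adjusted p = 0.123, the call lost) and by -0.13 from 6 h (adjusted p = 0.0375).

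Of 32 other growth factors and cytokines tested, 15 were lower and 6 higher at 6 h, beside 16.7% and 36.6% of all genes (list median -0.10). The same shares of all genes stand beside the 6 h counts of every list below. The latent TGF-beta binding proteins LTBP1 (-3.0 ± 0.12, SE; limma adjusted p = 2.16e-12) and LTBP2 (-2.46 ± 0.10; limma adjusted p = 2.49e-12) fell. Of the 6 insulin-like growth factor binding proteins tested, 4 were lower and 2 higher (median -0.54, and 0 higher after cyclic loess, 1 at an unadjusted p under 0.05), among them IGFBP6 (-1.83 ± 0.09; limma adjusted p = 1.22e-11) and IGFBP4 (-0.88 ± 0.08; limma adjusted p = 1.40e-07).

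Receptors and surface proteins formed a group of 15. CD44, the hyaluronan receptor, and NT5E (CD73), an enzyme that makes adenosine at the cell surface, are used as surface markers of mesenchymal cells. CD44 read 10.96, 11.06, 11.41 and 11.07 in the untreated arrays, 8.04, 7.65, 7.38 and 7.71 at 6 h, 8.01, 8.08, 7.92 and 8.01 at 24 h and 7.89, 8.01, 7.77 and 8.0 at 48 h. NT5E read 11.09, 11.26, 11.33 and 11.10 in the untreated arrays, 7.62, 7.17, 6.95 and 7.10 at 6 h, 7.58, 7.67, 7.53 and 7.59 at 24 h and 7.69, 7.82, 7.57 and 7.77 at 48 h. CD44 was thus 10.8-fold lower at 6 h and 9.24-fold at 48 h, and NT5E 15.8-fold and 11.2-fold, with a wide gap to the untreated arrays in both. From 6 h to 48 h NT5E rose by 0.50 ± 0.11 (limma adjusted p = 0.00161), although its 6 h and 48 h ranges overlapped. TGFBR2, the type II receptor for TGF-beta, had untreated values of 8.40, 8.89, 8.96 and 8.83 and 6 h values of 6.12, 6.00, 5.70 and 5.59. It was 7.56-fold lower at 6 h, 6.25-fold at 24 h and 6.69-fold at 48 h.

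TM4SF1, a surface protein of the tetraspan type, was the gene of the set with the largest rise between exposure times. TM4SF1 read 9.44, 9.30, 9.46 and 9.53 in the untreated arrays, 6.10, 5.71, 5.11 and 5.56 at 6 h, 6.46, 6.53, 6.24 and 6.41 at 24 h and 6.63, 6.70, 6.52 and 6.87 at 48 h. All 24 h arrays and all 48 h arrays lay above all 6 h arrays, and all stayed far below the untreated ones. It rose by 0.79 ± 0.14 from 6 h to 24 h (limma adjusted p = 0.00689) and by 1.06 ± 0.14 from 6 h to 48 h (limma adjusted p = 3.0e-05). Its difference from untreated narrowed from 14.1-fold at 6 h to 6.74-fold at 48 h. IL1R1, the receptor for interleukin 1, read 4.41, 4.12, 3.89 and 4.06 at 6 h, 4.90, 4.65, 4.67 and 4.30 at 24 h and 4.62, 4.79, 4.65 and 5.28 at 48 h, and rose by 0.72 ± 0.15 from 6 h to 48 h with no overlap (limma adjusted p = 0.0013).

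Of 7 receptors and surface proteins that rose from 6 h to 48 h, the others were ADGRG6, FAT1, GJA1, NT5E and PTPRK. Calls were lost without any 1 of 4 arrays for ADGRG6 (6 h replicates 3 and 4, 48 h replicates 2 and 4; adjusted p 0.0609 to 0.0775), of 3 for GJA1 (6 h replicates 3 and 4, 48 h replicate 4; 0.0540 to 0.0604) and of 5 for PTPRK (6 h replicates 3 and 4, 48 h replicates 1, 2 and 4; 0.0558 to 0.104). PTPRK's call was also lost without the untreated arrays. GAS1, which anchors at the outer membrane and arrests growth, fell instead, by 0.36 ± 0.07 (limma adjusted p = 0.00112), with no overlap between the 6 h and 48 h arrays. TSPAN8 read 3.98, 3.71, 3.58 and 3.67 at 6 h and 3.38, 3.40, 3.11 and 3.11 at 48 h. It is counted as lower by the fit (limma adjusted p = 0.00477), but these values lie at the dim end of the table, and nothing is drawn from it. FAT1, a giant cadherin that acts upstream of the Hippo kinases, was the 1 gene of the set higher at 48 h than at 24 h. It read 5.00, 4.56, 4.91 and 4.96 at 6 h, 4.93, 5.17, 4.85 and 4.87 at 24 h and 5.05, 5.53, 5.84 and 5.07 at 48 h, a rise of 0.42 ± 0.15 with overlapping arrays (limma adjusted p = 0.0453). That call was lost without any 1 of 10 arrays (untreated replicates 1, 2 and 3, 6 h replicates 3 and 4, 24 h replicates 1, 3 and 4, and 48 h replicates 2 and 3), where its adjusted p lay between 0.0501 and 0.158, and without all untreated arrays, where 0 genes were higher. Its rise from 6 h to 48 h was lost without 6 h replicate 2 (adjusted p = 0.0503).

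Of 32 other receptor kinases and cytokine receptors tested, 15 were lower and 6 higher at 6 h (median -0.12), with MET at -2.21 ± 0.09 (limma adjusted p = 2.28e-12) and IL13RA1 at -1.68 ± 0.06 (limma adjusted p = 1.08e-12). Of 14 TNF receptors, 8 were lower and 1 higher (median -0.47). Of 16 surface antigens of mesenchymal and stromal cells outside the set, 11 were lower and 2 higher (median -0.51). In these 2 lists TNFRSF12A, the TWEAK receptor, fell by 2.66 ± 0.12 (limma adjusted p = 6.78e-12) and FAP, a stromal surface protease, by 3.28 ± 0.12 at 6 h (limma adjusted p = 5.22e-13), and it differed by -2.24 ± 0.12 at 48 h. The tetraspanins and PMP22 family divided evenly, with 8 of 25 lower and 8 higher (median 0.05): EMP3 fell by 2.82 ± 0.08 (limma adjusted p = 4.47e-14) and TSPAN7 rose by 1.31 ± 0.05 (limma adjusted p = 1.35e-12).

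CAV1 and CAV2, the caveolins of non-muscle cells, are neighbours on chromosome 7 with no protein-coding gene between them in the RefSeq table. CAV1 read 11.04, 11.21, 11.38 and 11.01 in the untreated arrays, 7.49, 7.27, 6.71 and 7.03 at 6 h, 7.63, 7.47, 7.30 and 7.46 at 24 h and 7.24, 7.30, 6.87 and 7.49 at 48 h. CAV2 read 9.85, 10.00, 10.30 and 10.11 in the untreated arrays, 6.79, 6.49, 5.81 and 6.00 at 6 h, 6.82, 6.87, 6.62 and 6.69 at 24 h and 6.62, 6.68, 6.53 and 6.85 at 48 h. In both genes replicate 1 was highest and replicate 3 lowest at 6 h. CAV1 was 16.4-fold lower at 6 h and 15.3-fold lower at 48 h. Of 9 other caveola proteins tested, 5 were lower and 1 higher at 6 h (median -0.37), among them CAVIN1, the coat protein of caveolae, at -2.64 ± 0.08 (limma adjusted p = 4.95e-14) and EHD2, which sits at the caveolar neck, at -1.52 ± 0.10 (limma adjusted p = 1.55e-09).

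ANXA2, an annexin that binds membrane phospholipids with calcium and pairs with S100A10, is shown with its promoter because one of the searched AP-1 motifs and a TATA box lie in it. The sequence gives the 250 bases before the RefSeq start (GRCh38.p14, chr15:60397987-60398236, minus strand), 5′ to 3′ on the gene's strand, with TGANTCA and TATAAA matches in capitals.
ANXA2: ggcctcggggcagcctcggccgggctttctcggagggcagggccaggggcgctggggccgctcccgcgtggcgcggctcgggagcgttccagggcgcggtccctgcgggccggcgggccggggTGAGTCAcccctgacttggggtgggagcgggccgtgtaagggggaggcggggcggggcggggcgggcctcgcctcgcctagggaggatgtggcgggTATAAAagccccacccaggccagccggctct
The AP-1 match begins 127 bases and the TATAAA match 31 bases before the start. ANXA2 read 12.95, 12.98, 12.86 and 13.01 in the untreated arrays, 10.24, 10.01, 9.68 and 9.86 at 6 h, 10.45, 10.24, 10.16 and 10.31 at 24 h and 9.96, 10.07, 9.80 and 10.15 at 48 h. No exposed array read above 10.45 and no untreated array below 12.86. From 24 h to 48 h ANXA2 fell by 0.30 ± 0.10 (limma adjusted p = 0.0362) with no overlap, a call lost without replicate 1, 2 or 4 of the 24 h group or replicate 1 or 3 of the 48 h group (adjusted p 0.0531 to 0.119). The ANXA2 call was also lost when quantile normalization was applied again, after cyclic loess and without the untreated arrays. S100A11 fell by 0.52 ± 0.14 over the same interval (limma adjusted p = 0.0124). Of 6 other annexins tested, 4 were lower and 0 higher at 6 h (median -0.65; 4 and 0 also at an unadjusted p under 0.05), and of 9 other S100 genes 6 were lower and 2 higher (median -0.96). S100A10 itself fell by 2.42 ± 0.10 (limma adjusted p = 1.63e-12) and ANXA5 fell by 1.21 ± 0.07 (limma adjusted p = 1.71e-10).

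Among the 12 matrix proteins and extracellular enzymes, THBS1 encodes thrombospondin-1, a secreted glycoprotein and a well known YAP1 target. Its promoter is shown because it holds a GGAATG match, the core of the TEAD site (250 bases before the start, GRCh38.p14, chr15:39580829-39581078, plus strand, match in capitals).
THBS1: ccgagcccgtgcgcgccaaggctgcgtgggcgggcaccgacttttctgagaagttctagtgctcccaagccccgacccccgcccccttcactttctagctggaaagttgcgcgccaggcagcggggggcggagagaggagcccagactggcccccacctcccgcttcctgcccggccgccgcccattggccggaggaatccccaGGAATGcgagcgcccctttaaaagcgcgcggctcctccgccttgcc
The match begins 46 bases before the start. THBS1 read 8.85, 9.29, 9.55 and 9.37 in the untreated arrays, 5.46, 5.19, 4.79 and 5.05 at 6 h, 5.90, 5.87, 5.55 and 5.92 at 24 h and 5.45, 5.76, 5.33 and 5.47 at 48 h. No exposed array read above 5.92, while the lowest untreated array read 8.85. THBS1 was 17.7-fold lower at 6 h, 11-fold at 24 h and 13.6-fold at 48 h. All 24 h arrays lay above all 6 h arrays, a rise of 0.69 ± 0.15 (limma adjusted p = 0.0198). That call was lost without replicate 3 or 4 of the 6 h group or replicate 1, 2 or 4 of the 24 h group, where its adjusted p lay between 0.0602 and 0.0719. It was also lost as a mean over the gene's probe sets, where the rise was 0.25 (adjusted p = 0.103).

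PLAU and PLAT encode the urokinase and tissue plasminogen activators, proteases that turn plasminogen into plasmin. PLAU read 9.47, 9.92, 10.31 and 10.13 in the untreated arrays, 6.91, 6.75, 6.36 and 6.58 at 6 h, 7.17, 6.73, 6.90 and 6.86 at 24 h and 6.68, 6.71, 6.42 and 7.07 at 48 h. PLAT read 10.27, 10.22, 10.21 and 10.09 in the untreated arrays, 6.97, 6.43, 6.03 and 6.70 at 6 h, 7.23, 7.22, 7.17 and 7.14 at 24 h and 6.97, 7.13, 6.87 and 7.31 at 48 h. PLAU was 9.90-fold lower at 6 h and 9.43-fold at 48 h, and PLAT 12.7-fold and 8.74-fold. PLAT rose by 0.66 ± 0.14 from 6 h to 24 h with no overlap (limma adjusted p = 0.0189), a call lost without 6 h replicate 2 or 24 h replicate 1 or 2 (adjusted p 0.0547 to 0.0585). Of 8 other genes of coagulation and plasminogen activation tested, 6 were lower and 0 higher at 6 h, also at an unadjusted p under 0.05 (median -0.81), with the urokinase receptor PLAUR at -1.96 ± 0.09 (limma adjusted p = 1.55e-11) and PROCR, the protein C receptor, at -1.68 ± 0.10 (limma adjusted p = 2.66e-10).

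The basement membrane linkers NID1 and NID2, the proteoglycan VCAN, the microfibril protein MFAP5, the crosslinking enzyme TGM2 and CCDC80 belonged to the same role. MFAP5 rose by 0.72 ± 0.15 from 6 h to 24 h (limma adjusted p = 0.0167), with no overlap. NID1 fell by 0.40 ± 0.09 from 24 h to 48 h (limma adjusted p = 0.00372), again with no overlap. Of 12 other thrombospondins, tenascins and matricellular genes tested, 7 were lower and 0 higher at 6 h, also at an unadjusted p under 0.05 (median -0.29), among them TNC (-2.47 ± 0.10; limma adjusted p = 3.36e-12) and TGFBI (-2.05 ± 0.10; limma adjusted p = 2.25e-11). Small leucine-rich proteoglycans gave 3 lower and 1 higher of 8 (median 0.03), with LUM at -2.30 ± 0.13 (limma adjusted p = 1.13e-10) and DCN at -1.57 ± 0.14 (limma adjusted p = 4.03e-08). Cell-surface heparan sulphate proteoglycans gave 3 lower and 3 higher of 8 (median -0.085), with SDC4 at -2.24 ± 0.09 (limma adjusted p = 1.27e-12) and GPC2 at 0.44 ± 0.04 (limma adjusted p = 2.24e-07).

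Among the 13 transcription regulators were both Hippo co-activators, YAP1 and WWTR1, and LATS2, a kinase that phosphorylates and restrains them. The promoters of YAP1 and RUNX2, an osteoblast transcription factor that can bind YAP1, are shown because YAP1 holds a GGAATG match and RUNX2 a TGANTCA match (250 bases before the start, GRCh38.p14; YAP1 chr11:102110197-102110446, plus strand; RUNX2 chr6:45328080-45328329, plus strand; matches in capitals).
YAP1: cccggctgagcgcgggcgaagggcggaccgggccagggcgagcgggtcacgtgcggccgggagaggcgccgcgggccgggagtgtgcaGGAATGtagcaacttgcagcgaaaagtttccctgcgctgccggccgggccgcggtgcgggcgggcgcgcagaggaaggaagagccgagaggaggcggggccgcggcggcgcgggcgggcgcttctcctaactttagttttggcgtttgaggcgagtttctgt
RUNX2: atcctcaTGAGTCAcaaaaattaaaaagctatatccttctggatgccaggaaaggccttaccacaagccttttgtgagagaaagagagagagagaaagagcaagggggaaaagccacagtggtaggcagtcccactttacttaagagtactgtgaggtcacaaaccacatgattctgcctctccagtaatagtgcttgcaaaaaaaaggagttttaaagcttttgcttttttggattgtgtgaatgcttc
The match begins 162 bases before the start in YAP1 and 243 bases before it in RUNX2. YAP1 read 9.25, 9.52, 9.44 and 9.21 in the untreated arrays, 5.76, 5.23, 5.20 and 4.54 at 6 h, 5.81, 6.16, 5.94 and 6.01 at 24 h and 5.72, 5.85, 5.39 and 5.53 at 48 h. WWTR1 read 7.78, 7.74, 7.99 and 7.86 in the untreated arrays, 4.83, 4.92, 4.28 and 4.24 at 6 h, 5.07, 5.28, 4.88 and 5.19 at 24 h and 4.54, 4.94, 4.69 and 4.78 at 48 h. LATS2 read 7.82, 8.20, 8.24 and 8.01 in the untreated arrays, 5.20, 4.35, 4.52 and 4.68 at 6 h, 5.54, 5.10, 5.26 and 5.01 at 24 h and 5.07, 5.10, 4.78 and 5.49 at 48 h. All 3 were lower in every exposed array than in any untreated array, and their mean differences at 6 h were -4.17, -3.28 and -3.38. YAP1 was 18.0-fold lower at 6 h, 10.4-fold at 24 h and 13.3-fold at 48 h.

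YAP1 rose by 0.80 ± 0.18 from 6 h to 24 h (limma adjusted p = 0.0231), and every 24 h array lay above every 6 h array. The call was lost without replicate 2 or 3 of the 6 h group or replicate 2, 3 or 4 of the 24 h group, where its adjusted p lay between 0.0509 and 0.0835. RUNX2 read 7.38, 7.63, 7.75 and 7.53 in the untreated arrays, 4.23, 3.90, 3.74 and 3.69 at 6 h, 4.53, 4.67, 4.48 and 4.88 at 24 h and 4.19, 4.48, 4.52 and 4.58 at 48 h. RUNX2 rose by 0.75 ± 0.12 from 6 h to 24 h with no overlap (limma adjusted p = 0.003), and that call held in every fit without 1 array. HMGA2, an architectural chromatin protein, read 5.19, 5.06, 4.48 and 4.90 at 6 h, 5.79, 5.48, 5.50 and 5.46 at 24 h and 5.55, 5.83, 5.34 and 6.02 at 48 h. It rose by 0.65 ± 0.15 from 6 h to 24 h (limma adjusted p = 0.0236) and by 0.78 ± 0.15 from 6 h to 48 h (limma adjusted p = 0.000606). The first of these calls was lost without 6 h replicate 3 or 4 or 24 h replicate 1, 2 or 3 (adjusted p 0.0508 to 0.0847). As a mean over its probe sets the 2 rises of HMGA2 were 0.06 and 0.02, and neither passed the threshold. Its other probe sets were dim, with untreated means of 3.23 to 4.47 and differences from untreated of -0.66 to 0.17 at 6 h.

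LEF1, a partner of beta-catenin, and RUNX1 lay close to the lowest values of the table after exposure. LEF1 read 5.67, 5.78, 6.47 and 6.11 in the untreated arrays, 3.26, 3.18, 3.22 and 3.10 at 6 h, 3.13, 3.16, 3.21 and 3.00 at 24 h and 3.05, 3.03, 3.05 and 3.05 at 48 h. In the exposed arrays LEF1 thus ranged over 3.00 to 3.26, where a further change could hardly register. Of 36 other mesenchymal and patterning transcription factors tested, 16 were lower and 7 higher at 6 h (median -0.11), among them SOX9 (-2.43 ± 0.10; limma adjusted p = 2.69e-12) and TWIST2 (-2.47 ± 0.12; limma adjusted p = 1.45e-11).

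The cytoskeletal genes included MYLK, the kinase of myosin light chains, and the actin-binding calponin CNN2 and transgelin TAGLN, which serum response factor is known to drive. MYLK and CNN2 are shown because 1 RefSeq promoter of each holds a CArG box, the site of that factor (250 bases before the start, GRCh38.p14; MYLK chr3:123620549-123620798, minus strand; CNN2 chr19:1026358-1026607, plus strand; CArG box and TATAAA matches on either strand in capitals). A gene can have several starts, and which MYLK transcript begins at the start shown was not examined.
MYLK: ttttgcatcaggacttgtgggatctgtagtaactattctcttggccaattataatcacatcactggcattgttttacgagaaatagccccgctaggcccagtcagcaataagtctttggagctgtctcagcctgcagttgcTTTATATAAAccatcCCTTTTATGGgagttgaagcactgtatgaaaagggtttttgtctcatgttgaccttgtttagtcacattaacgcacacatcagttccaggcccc
CNN2: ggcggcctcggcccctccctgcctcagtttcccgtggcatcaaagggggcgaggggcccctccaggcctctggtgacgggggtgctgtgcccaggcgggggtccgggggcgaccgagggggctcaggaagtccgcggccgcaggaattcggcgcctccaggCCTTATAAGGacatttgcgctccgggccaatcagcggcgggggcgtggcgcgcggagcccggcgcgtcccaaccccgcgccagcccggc
The CArG box begins 94 bases before the start in MYLK and 89 bases before it in CNN2, and MYLK also holds TATAAA matches on both strands that overlap each other. MYLK read 9.91, 10.03, 10.18 and 9.95 in the untreated arrays, 7.19, 6.88, 6.74 and 6.84 at 6 h, 7.22, 7.32, 7.06 and 7.18 at 24 h and 7.14, 7.25, 7.0 and 7.24 at 48 h. CNN2 read 9.63, 9.82, 10.14 and 9.64 in the untreated arrays, 7.18, 7.05, 6.39 and 6.80 at 6 h, 7.33, 7.15, 7.14 and 7.30 at 24 h and 6.97, 7.04, 6.96 and 7.17 at 48 h. The mean differences at 6 h were -3.11 for MYLK and -2.95 for CNN2, and in both genes the exposed arrays lay clear of the untreated ones.

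TUBB6, a beta-tubulin, was lower at 48 h than at either earlier time. TUBB6 read 10.92, 11.17, 11.37 and 11.25 in the untreated arrays, 8.53, 8.40, 8.26 and 8.23 at 6 h, 8.35, 8.42, 8.26 and 8.29 at 24 h and 7.65, 7.73, 7.54 and 7.80 at 48 h. All 48 h arrays lay below all earlier arrays, with differences of -0.65 ± 0.09 from 24 h (limma adjusted p = 4.2e-05) and -0.68 ± 0.09 from 6 h (limma adjusted p = 2.1e-05). The difference from untreated widened from 7.07-fold at 6 h to 11.3-fold at 48 h. TAGLN fell by 0.53 ± 0.13 from 24 h to 48 h with no overlap (limma adjusted p = 0.00708). Probe sets of TUBB6, of the alpha-tubulin TUBA1C and of the keratin KRT18 may share sequence with close paralogues or pseudogenes, so their values are less certain.

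KRT18 is an intermediate filament protein of simple epithelia. KRT18 read 9.66, 9.75, 9.91 and 9.87 in the untreated arrays, 6.10, 5.90, 5.30 and 5.60 at 6 h, 6.25, 6.29, 6.27 and 6.18 at 24 h and 5.92, 6.09, 6.07 and 6.64 at 48 h. Its usual partner KRT8 was dim throughout, with group means between 3.63 and 4.02. The epithelial markers EPCAM, CDH1, KRT19 and CLDN4 stood at 4.37, 3.21, 5.19 and 4.89 in untreated cells, and differed by -0.17, 0.04, 0.20 and -0.04 at 6 h. Of 38 other LIM, actin and focal adhesion genes tested, 28 were lower and 5 higher at 6 h (median -0.67), with vinculin, VCL, at -1.28 ± 0.05 (limma adjusted p = 5.78e-13) and the tropomyosin TPM2 at -2.07 ± 0.08 (limma adjusted p = 5.82e-13).

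The remaining group held IFI16, a nuclear DNA sensor, SP100 of nuclear bodies, FAM111A, the initiator caspase CASP8, and TAP1 and PSMB8, which produce and transport peptides for MHC class I and are neighbours on chromosome 6. IFI16 read 9.52, 9.37, 9.32 and 9.33 in the untreated arrays, 5.95, 5.56, 5.34 and 5.26 at 6 h, 6.09, 6.20, 5.99 and 5.85 at 24 h and 5.85, 5.79, 5.91 and 5.88 at 48 h. IFI16 was 14.5-fold lower at 6 h and 11.5-fold at 48 h. TAP1 read 6.51, 6.61, 6.82 and 6.82 in the untreated arrays, 3.74, 3.84, 3.93 and 3.61 at 6 h, 4.17, 3.98, 4.16 and 3.91 at 24 h and 3.96, 4.06, 3.87 and 4.09 at 48 h. PSMB8 read 7.87, 7.93, 7.84 and 7.70 in the untreated arrays, 4.99, 5.04, 4.60 and 5.01 at 6 h, 5.07, 5.24, 5.01 and 5.02 at 24 h and 5.30, 5.22, 4.83 and 5.31 at 48 h. The differences at 6 h were -2.91 for TAP1 and -2.93 for PSMB8. Of 9 complement genes tested, 6 were lower and 1 higher at 6 h (median -0.59), with clusterin, CLU, at -1.84 ± 0.13 (limma adjusted p = 3.86e-09) and CD59 at -0.76 ± 0.06 (limma adjusted p = 4.32e-09).

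RDH10, which begins the conversion of retinol to retinoic acid, differed by -4.06 at 6 h. Retinoid genes outside the set gave 4 lower and 3 higher of 12 (median 0.13), with CRABP2 at -1.42 ± 0.11 (limma adjusted p = 6.35e-09) and RARB at -1.06 ± 0.08 (limma adjusted p = 1.34e-08). Prostaglandin genes gave 5 lower and 3 higher of 13 at 6 h (median -0.05, and 5 and 0 after cyclic loess, also at an unadjusted p under 0.05) and 3 lower and 4 higher at 48 h, with PTGS1 at -1.05 ± 0.08 (limma adjusted p = 5.95e-09) and PTGER2 at -0.99 ± 0.11 (limma adjusted p = 6.74e-07). Lysophospholipid genes gave 5 lower and 5 higher of 12 (median 0.10), with S1PR3 at -1.25 ± 0.06 (limma adjusted p = 6.83e-12) and PLPP1 at -0.98 ± 0.06 (limma adjusted p = 5.18e-10). At 24 h, 4 lysophospholipid genes were lower and 7 higher (median 0.30), beside 16.9% and 35.3% of all genes. In each list the genes named are those with the smallest p at 6 h, not typical ones. Of 17 genes of adrenergic identity tested, 16 were higher and 0 lower at 6 h (median 0.32, and 1 lower at an unadjusted p under 0.05), beside 36.6% and 16.7% of all genes. Among them were EYA1 at 1.31 ± 0.05 (limma adjusted p = 3.62e-13) and DDC at 0.76 ± 0.04 (limma adjusted p = 1.08e-10).

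Over the 20 lists together, 318 genes outside the set were tested. At 6 h 157 (49.4%) were lower and 71 (22.3%) higher, at 24 h 153 and 66, and at 48 h 154 and 73. The lists were drawn up with earlier results of these data known and hold 30 of the 102 genes, which are not counted here. With the dimmest 50% of genes left out, which also leaves fewer list genes to test, 98, 96 and 96 list genes were lower at the 3 times. After cyclic loess, the medians of the small leucine-rich proteoglycans and of the tetraspanins at 6 h turned from 0.03 and 0.05 to -0.03 and -0.03. The single higher gene of the caveola, small leucine-rich proteoglycan, TNF receptor and complement lists was not called after it, also at an unadjusted p under 0.05, and adrenergic genes gave 14 higher and 1 lower. When all probe sets of a gene were averaged, the differences at 6 h of 11 of the 40 list genes named here shrank by over 1.5 times, with no call lost: EHD2 at -0.27, MET at -0.77, IGFBP4 at -0.29, PTGS1 at -0.37, VCL at -0.52, RARB at -0.54, CLU at -0.91, TPM2 at -1.14, TWIST2 at -1.29, SOX9 at -1.32 and DDC at 0.32.

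Of 17 mesenchymal neuroblastoma markers, 12 met the limit of 2.5, so their side is set by the rule: 6 are genes of the set (CD44, YAP1, WWTR1, RUNX1, IFI16 and TGFBR2) and 6 were set aside by name (PRRX1, FN1, COL1A1, COL6A3, CCN1 and CCN2). The other 5, VIM, SNAI2, FOSL1, NOTCH2 and LAMC1, were all lower at 6 h and at 48 h by the fit. The mean over the 17 lay at 8.87 to 9.10 per untreated array, 5.78 to 6.16 at 6 h, 6.09 to 6.16 at 24 h and 5.92 to 6.06 at 48 h. It includes the 12 markers whose side the rule set, so this mean carries no support of its own. The sizes were unequal: PRRX1 differed by -5.10 at 6 h. The 5 outside the limit differed by less, NOTCH2 by -1.41, SNAI2 by -1.30, VIM by -1.24, LAMC1 by -1.02 and FOSL1 by -0.80. Of 9 fibroblast markers, COL1A1 also met the limit, and 6 of the other 8 were lower at 6 h, while PDGFRA and PDGFRB differed by 0.05 and 0.00. That list's mean, with COL1A1 included, went from 8.15 to 8.29 per untreated array to 6.50 to 6.82 at 6 h. Of 6 leucocyte markers, PTPRC, CD14, CSF1R, LYZ and AIF1 were below the 25th percentile of all genes in every group, while CD68 was lower at 6 h, with means of 5.94 and 4.44. Of 6 glial markers on the array ERBB3, CDH19 and FOXD3 were below that percentile, while S100B was higher at 6 h, with means of 5.32 and 5.93. The part of a change in cell types in the result was not tested.

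The differences between exposure times were much smaller than the differences from untreated cells. The rule asked for large differences from untreated and for no size between times, so nothing is drawn from that contrast. From 6 h to 24 h, 15 of the 102 genes rose and 0 fell, 14.7% against 1.55% of all tested genes higher and 0.855% lower (limma adjusted p under 0.05). The 15 were PHLDA1, IFI16, HOXB2, NIBAN1, TGM2, HMGA2, MYOF, PLAT, THBS1, TNS3, MFAP5, RUNX2, IGF2BP2, TM4SF1 and YAP1. Besides the losses given above, the call of HOXB2 was lost without any 1 of 11 arrays. Those of TGM2 and TNS3 were lost without any 1 of 10, those of IFI16 and PHLDA1 of 6, and that of NIBAN1 without 24 h replicate 2. The median difference was 0.27 over the 102 and 0.00 over all tested genes, and 92 of the 102 had a mean above that at 6 h. In 22 of the 102 every 24 h array lay above every 6 h array, as in 6.25% of tested genes. The smallest fall from untreated occurred at 24 h in 77 genes, at 48 h in 17 and at 6 h in 8, with a tie in EMP1 counted at 24 h.

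The number of genes called between 6 h and 24 h depended on single arrays. Without replicate 1 of the 6 h group 38 genes were higher. Without replicate 3 of that group 7 were, without its replicate 4 8, without replicate 1 of the 24 h group 7, and without its replicate 2 only 5. Without the untreated arrays 13 were higher. No gene was lower at 24 h in any of these fits. At an unadjusted p under 0.05, 52 genes were higher and 0 lower. Shares of all tested genes at that limit, or in fits without some of the arrays, are not given here or for the later steps. Such counts therefore show only how the calls moved.

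From 24 h to 48 h, 8 of the 102 genes fell (ANXA2, GAS1, GREM1, KITLG, NID1, S100A11, TAGLN and TUBB6) and 1 rose (FAT1), 7.84% and 0.98% against 15.1% of all tested genes lower and 13.5% higher. The median difference was -0.10 over the 102 and -0.01 over all tested genes. All 8 that fell had no overlap between their 24 h and 48 h arrays, and 12 of the 102 lay wholly lower at 48 h, as did 16.1% of tested genes. The share of these genes called was thus below that of all genes in both directions. Without replicate 1 of the 6 h group 12 genes were lower, and without the untreated arrays 11.

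From 6 h to 48 h, 24 genes rose and 6 fell (GREM1, TUBB6, KITLG, TAGLN, TSPAN8 and GAS1), 23.5% and 5.88% against 16.7% of all tested genes higher and 17.0% lower. TSPAN8 is among the 7 genes that passed the dim filter through the untreated arrays alone. Without those 7, 24 of 95 genes rose and 5 fell from 6 h to 48 h. The earlier steps kept 15 higher and 0 lower, and 1 higher and 8 lower. In 10 of the 102 every 48 h array lay above every 6 h array and in 7 below, against 16.4% and 16.6% of tested genes, so by that measure the share that rose was below that of all genes. After TM4SF1 the largest rises were those of CCDC85A (0.78 ± 0.19; limma adjusted p = 0.00418), HMGA2 and IL1R1. Besides the losses given above, the call of TGM2 was lost without any 1 of 11 arrays and that of MYLK of 10. The calls of IFI16 (6 arrays), PHLDB2 (5), BNC2 and KRT18 (3 each), and HOXB2 and MYOF (1 each) were also lost in such fits. Without replicate 1 of the 6 h group 40 genes were higher, without replicate 3 of that group 14, and without the untreated arrays 24.

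The probe set that stood for a gene also mattered between times. When all probe sets of a gene were averaged, 30 of the 54 called differences between times moved by over 1.5 times and 11 calls were lost. From 6 h to 24 h the lost calls were those of HMGA2, PHLDA1, TGM2 and THBS1, from 24 h to 48 h that of KITLG, and from 6 h to 48 h those of GJA1, HMGA2, MYLK, PHLDA1, PHLDB2 and TGM2. The other probe sets of HMGA2, KITLG, TGM2 and GJA1 were dim in untreated cells, so their lost calls are not contrary readings. Those of MYLK were bright, at 9.23 and 9.71, and its rise moved little, from 0.245 to 0.203 (limma adjusted p = 0.0729). The further PHLDA1 probe sets did not all move alike. They differed from untreated by -3.58, -2.035 and -1.965 at 6 h, and by -3.31, -2.17 and -1.88 at 48 h. Among calls that were kept, YAP1 from 6 h to 24 h went from 0.80 to 0.38, RUNX2 from 0.75 to 0.36, and PLAT from 0.66 to 0.29, while IL1R1 from 6 h to 48 h went from 0.72 to 0.32 and TUBB6 from -0.68 to -0.39.

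**Figure D3:**
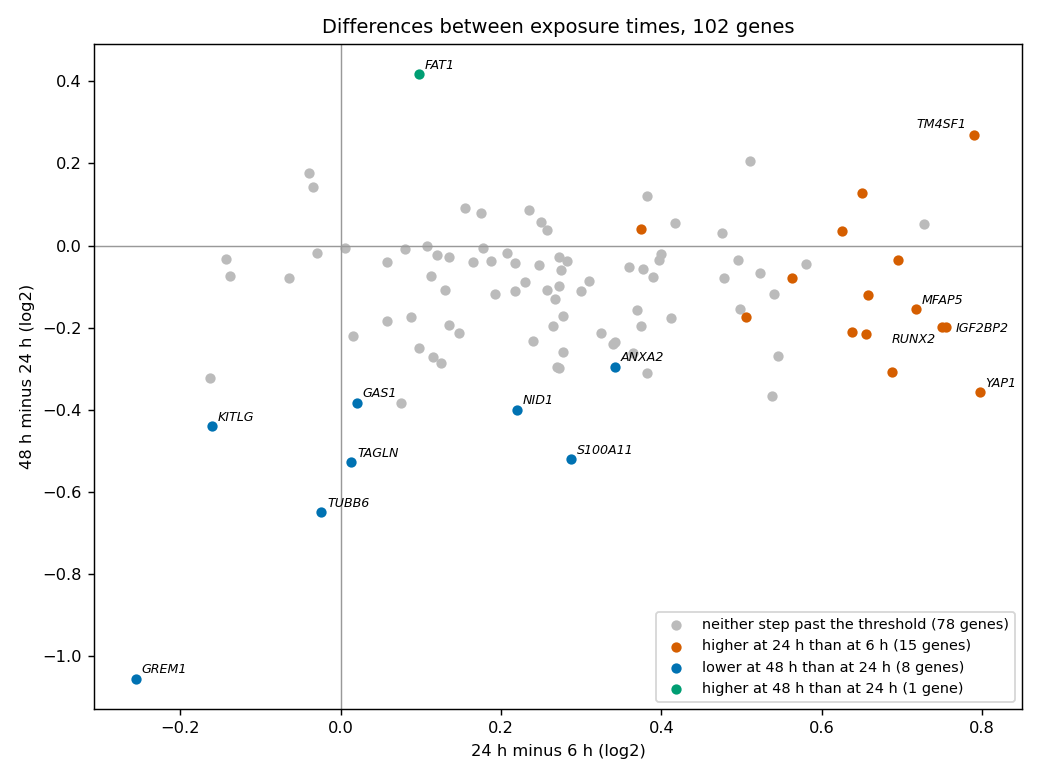
Difference from 24 h to 48 h (vertical axis, log2) against that from 6 h to 24 h (horizontal axis, log2) for the 102 genes, coloured by which step passed the limma threshold. Both axes use the 24 h arrays. The 15 genes higher at 24 h lie to the right, between 0.38 and 0.80, and GREM1 lies lowest, at -1.06.

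**Figure D4:**
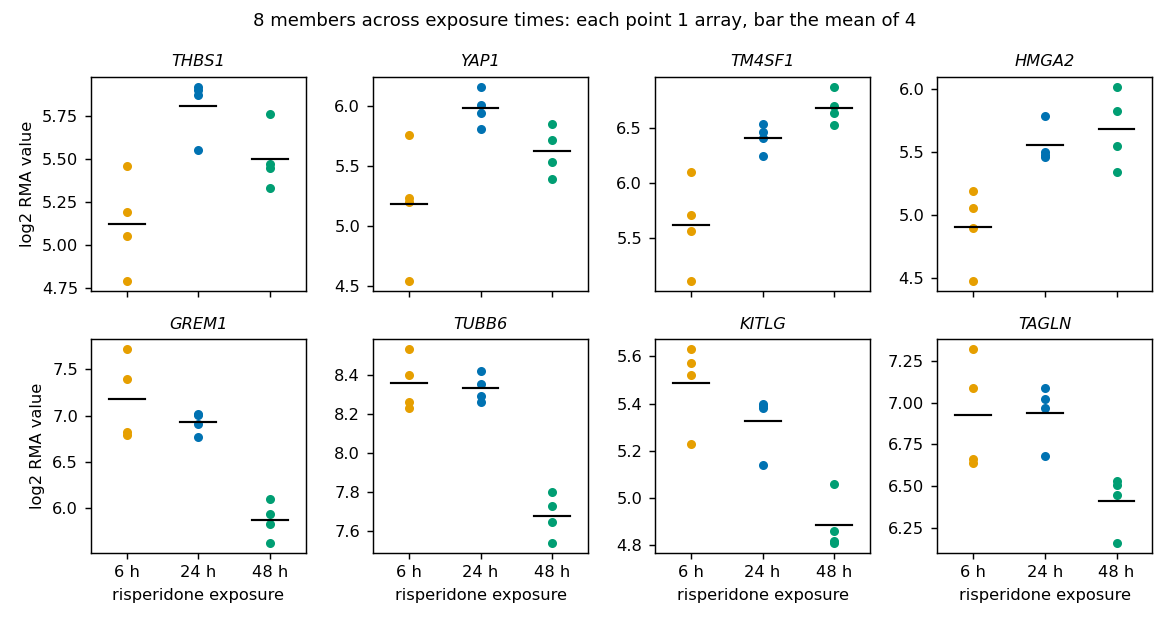
Log2 RMA value in each exposed array (points) and the mean of 4 (bars) at 6, 24 and 48 h for 8 genes, each on its own vertical scale that does not start at 0. THBS1, YAP1, TM4SF1 and HMGA2 lie higher at 24 h than at 6 h, while GREM1, TUBB6, KITLG and TAGLN lie lowest at 48 h.

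Within a group the genes varied together from array to array. In the 6 h group, replicate 1 was the highest of the 4 in 83 of the 102 genes and replicate 3 the lowest in 66, and the medians of the 102 in the 4 arrays were 5.56, 5.30, 4.98 and 5.04. In the untreated group replicate 3 was highest in 59 and replicate 1 lowest in 61, at 24 h replicate 1 was highest in 48 and replicate 3 lowest in 51, and at 48 h replicate 4 was highest in 60 and replicate 3 lowest in 61. Replicate 3 was thus most often the lowest array in all 3 exposed groups, but most often the highest in the untreated group. The median within-group SD was 0.17 over the 102 genes and 0.09 over all tested genes. At 6 h it was 0.27 against 0.08. The spread between the 6 h arrays was thus larger for these genes than for tested genes at large. Its part in the comparisons with 6 h was not tested beyond the counts without single arrays.

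Other probe sets of the same genes were examined as a description, since they measure the contrast the rule used. Of the 102 genes 12 had a single probe set, and the other 90 had 273 further ones. Of the 273, 145 were lower by at least 1 at all 3 times and 85 by at least 2.5. The 100 that differed by less than 0.5 at 6 h had untreated values of at most 4.79, with a median of 3.48. All 100 probe sets with an untreated value of at least 6 were lower by at least 1 at all times, and 83 of them by at least 2.5. CD44, for example, had 9 further probe sets, with differences from -4.05 to -1.77 at 6 h. In contrast KITLG had 3 and LEF1 8 further probe sets with untreated values between 2.95 and 3.61, whose differences at 6 h lay between -0.39 and 0.05.

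**Figure D5:**
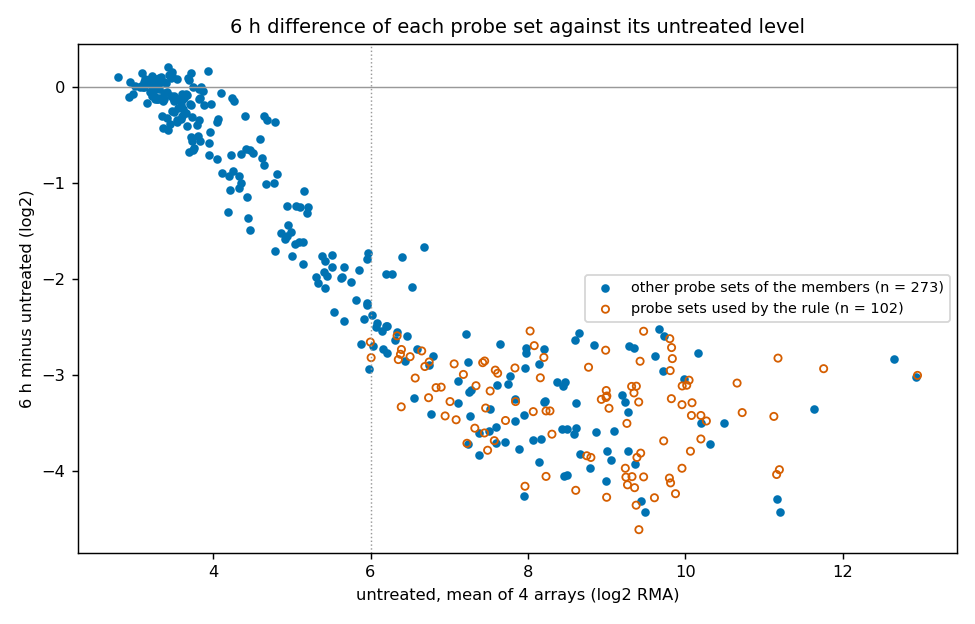
Difference at 6 h from untreated (vertical axis, log2) against the untreated mean (horizontal axis, log2 RMA) for the 102 probe sets used by the rule (open circles) and the 273 other probe sets of the same genes (filled points). Points near 0 on the vertical axis lie at untreated values of at most 4.79, and to the right of the dotted line at 6 all points lie lower by at least 1.

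Promoter letters were compared over the 86 of the 102 genes with an entry in the RefSeq promoter table, which held 140 promoters of 250 bases before the start. The motifs, searched on both strands, were TGANTCA (AP-1), GGAATG (TEAD), the CArG box, TATAAA and the E-box CACCTG. The GGAATG motif was found in 21 of the 86 genes (24.4%) and in 13.4% of 14492 array genes, or in 15% and 10.4% of promoters. TGANTCA was found in 12 of 86 (14%) and in 7.16% of array genes, or in 9.29% and 5.36% of promoters. CArG boxes were found in ARHGDIB, CNN2, LEF1 and MYLK, 4.65% against 1.66% of genes, or 2.86% against 1.22% of promoters. TATAAA was found in 16 genes (18.6% against 11.5%) and CACCTG in 21 (24.4% against 21.4%). By promoters the shares were 11.4% against 8.67% for TATAAA and 17.9% against 16.8% for CACCTG. The median GC content of the promoters was 58.8% against 62.4%. These are descriptions of letters in a window and not of bound sites, and several genes have more than 1 promoter.

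By position, 101 of the 102 genes were in the RefSeq gene table, on 21 chromosomes. Besides CAV1 with CAV2 and TAP1 with PSMB8, GREM1 and FMN1 on chromosome 15 were adjacent protein-coding genes. GLIPR1 and PHLDA1 on chromosome 12, TM4SF1 and WWTR1 on chromosome 3, and PTPRK and ARHGAP18 on chromosome 6 had 1 protein-coding gene between them. FMN1, a formin that nucleates actin filaments, differed from untreated by -3.12 at 6 h, beside -2.62 for GREM1. From 24 h to 48 h FMN1 differed by 0.06 ± 0.12 (limma adjusted p = 0.774), beside -1.06 for GREM1. That difference between the genes was not tested.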

How the data were processed

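Per the submitters' processing notes, the authors made the deposited log2 values with RMA, which corrects background, equalises the intensity distributions of the arrays and summarises the probes of each probe set. Which software ran RMA, in which version, and on which genome build is not given in the sources used here. Because distributions were equalised, a change in total RNA per cell cannot be seen.

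Symbols came from the platform annotation: of 49386 probe sets, 93 were controls, 45253 had 1 symbol, 1327 several and 2713 others none, and only those with 1 symbol were used. The dimmest 25% of the 18239 genes by mean value were left out, which left 13680. For tests, limma 3.58.1 (R 4.3.3) fitted every tested gene with lmFit, then eBayes (4 group means from all 16 arrays, two-sided, Benjamini-Hochberg within each contrast over all tested genes, threshold 0.05), after a check on simulated data. Errors are standard errors of the fit. Arrays of 1 group shared at most 4.55% identical values over tested genes, so no array was a copy of another; the number of arrays limits the precision.

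Genes of the set were named by rule: the 15 with the largest mean fall, the 8 largest rises and falls past the threshold between times, the 5 highest in untreated cells, the 5 on each side of the limit, and those in a list. Outside it, at most 2 genes of a list were named, those with the smallest p at 6 h. Other genes were named to illustrate a role, after their values were seen. The genes and the 20 lists were chosen with earlier results of these data known. Promoter sequences are those of RefSeq (GRCh38.p14); protein sequences were not used here. Samples with the same replicate number did not deviate together (correlations -0.15 to 0.18). Alternatives covered the probe set of a gene, dim filter, scaling, array weights, thresholds, the replicate block and single arrays left out.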

Additional observations from a re-analysis of the deposited data

Results flagged for a closer look

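Among 224 groups of 4 arrays examined for 55 named genes and the set as a whole, 11 held 1 array far from the other 3, and chance gives this in about 1 group in 20. At 48 h, ARHGAP18 read 4.47 in replicate 2 against 4.08 to 4.11 in the others. CCDC80 read 9.98 in untreated replicate 3 against 9.63 to 9.65. In replicate 1 of the 24 h group, CRIM1 read 5.98 against 5.32 to 5.40, HMGA2 5.79 against 5.46 to 5.50, S100A16 6.40 against 6.03 to 6.09 and KITLG 5.14 against 5.38 to 5.40. IGF2BP2 read 4.90 in 6 h replicate 1 against 4.21 to 4.30, and 5.33 in 24 h replicate 4 against 5.10 to 5.12. PHLDA1 read 4.39 in 24 h replicate 4 against 4.60 to 4.61, and THBS1 5.55 in 24 h replicate 3 against 5.87 to 5.92. RUNX1 read 3.92 in 6 h replicate 4 against 3.49 in each of the others.

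Differences from untreated cells that were not the same at 2 exposure times, by the limma test of the difference between those times, were counted in the 102 genes. At 24 h against 6 h 15 genes (14.7%) were higher, beside 1.55% of all tested genes. At 48 h against 24 h 1 (0.98%) was higher and 8 (7.84%) were lower, beside 13.5% and 15.1% of all tested genes. At 48 h against 6 h 24 (23.5%) were higher and 6 (5.88%) lower, beside 16.7% and 17.0%. The 6 include TSPAN8, and 5 were lower without the 7 genes that passed the dim filter through the untreated arrays alone. The largest single differences from 6 h to 48 h were -1.31 for GREM1, 1.06 for TM4SF1, 0.78 for CCDC85A and 0.7775 for HMGA2.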

How the results depend on the processing

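The set held 173 genes with a limit of 2.0, 46 with 3.0, 40 when all probe sets of a gene were averaged and 52 with their median, and 96 to 112 when single arrays were left out. Genes higher from 6 h to 24 h numbered 31 with array weights, 3 at an adjusted p of 0.01, 9 with only the 8 arrays compared, 35 with adjustment over the 3 contrasts together, and 5 to 38 with 1 array left out. Genes lower from 24 h to 48 h numbered 14 with array weights, 19 with only the 8 arrays compared and 7 to 12 with 1 array left out. The 1 gene higher from 24 h to 48 h became 2 with array weights and 0 with no filter, with medians subtracted, with the replicate block, at an adjusted p of 0.01, without the untreated arrays and with joint adjustment, and the range with 1 array left out was 0 to 1. Genes higher from 6 h to 48 h numbered 12 at an adjusted p of 0.01 and 14 to 40 with 1 array left out, and genes lower 6 to 9. List genes lower numbered 98, 96 and 96 at the 3 times with the dimmest 50% left out. The cause of these differences was not tested, except that the stricter filter tests fewer genes. Shares of all tested genes under these settings are not given beside the counts, which show only how the calls moved.

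The replicate numbers did not pair the samples, so the block is given here alone: with the replicate block 17 genes were higher and 0 lower at 24 h than at 6 h, 0 higher and 9 lower at 48 h than at 24 h, and 24 higher and 6 lower at 48 h than at 6 h. No named gene's difference turned its direction in any setting, and 209 calls of named genes over all settings were lost. Averaging a gene's probe sets lost 11 of them. In the 102 genes replicate 3 was most often lowest in each exposed group, although over the tested genes the numbers did not pair. Values near the lowest of the table limit what can be seen of the 24 genes with a 6 h mean below 4.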

Other observations

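Probe sets without a single gene symbol were kept out of the report. Of 4040 such probe sets with several symbols or none, 10 had means at 6, 24 and 48 h that all lay at least 2.5 below untreated: 4 with several symbols and 6 with none. The largest difference among them at 6 h was -3.39.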
